A study of Mus musculus with 12 samples.

Results

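Albumin (Alb) and 8 genes of the acute-phase response were followed in mouse colon: the serum amyloid A genes Saa1, Saa2 and Saa3, Lcn2, Lrg1, Hp, C3 and Cfb. A gene was taken through the array probes that list its symbol and no other, which found 8 of the 9 genes, each with 1 probe, among 28853 probes and 19938 genes named by a single symbol. C3, the central component of complement, had no such probe and is not analysed here. Total RNA from colon of male C57BL/6 mice was hybridised to Affymetrix mouse gene arrays, with 3 arrays labelled as biological replicates in each of 4 groups: TSP-1-/- mice given AOM/DSS, WT mice given AOM/DSS, TSP-1-/- mice on water and WT mice on water. Treated mice were 7 weeks old at the start and received 1 intraperitoneal dose of 10 mg/kg azoxymethane (AOM), a carcinogen that acts on the colon. They then drank 1.5% dextran sodium sulfate (DSS), which injures the colonic epithelium, in 4 cycles of 7 days, and were killed 15 weeks after AOM. The series text speaks of excised tumors while the labels name colon as the tissue, and the methods give the same sex, strain and age for the mice of the study, while the labels of the water arrays describe a protocol of an earlier experiment. TSP-1-/- mice carry a targeted mutation of Thbs1, the gene of thrombospondin-1, and make no protein although the gene is still there.

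In the acute-phase response, interleukin-1 and interleukin-6 released at a site of inflammation act on hepatocytes, which raise their output of serum amyloid A, haptoglobin and complement proteins and lower that of albumin. STAT3, NF-kappaB and C/EBP factors carry these signals to the genes. Outside the liver, SAA3, lipocalin-2 and LRG1 are also made locally by epithelial cells, macrophages and neutrophils, and lipocalin-2 in stool is widely used to follow colitis in mice.

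The deposited values are log2 signals set against a baseline of each probe's own, so they show how arrays differ at a gene and not how abundant a transcript is. The presence of colon markers and the order of levels between genes could therefore not be checked. The AOM/DSS arrays and the water arrays are on different baselines, and genotypes were compared within each set of 6 arrays. In whole tissue, fewer cells of a type and less RNA per cell cannot be told apart, and the number of arrays, 3 in a group, limits how precisely each value is known. The targeted gene does not check the labels, because the position of its probe relative to the mutated exons was not known: Thbs1 read 0.81, 0.85 and 0.93 on the TSP-1-/- AOM/DSS arrays, against 0.27, -0.16 and -0.07 on the WT AOM/DSS arrays, and -0.00, -0.96 and -1.15 on the TSP-1-/- water arrays, against -1.36, -0.99 and -0.47 on the WT water arrays. The Thbs1 differences did not pass the test (adjusted p = 0.0730 and 1.00, limma).

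After AOM/DSS, Alb and Lcn2 were higher in TSP-1-/- than in WT colons, and no other member passed the test. A probe was called where limma gave a Benjamini-Hochberg adjusted p under 0.05 over all probes and the difference was 2-fold or more. By that rule 2 of the 8 members were called higher, against 1.73% of all 28853 probes, and 0 were called lower, against 1.05% (2.78% in either direction). The other 6 members also had positive differences, between log2 0.16 for Cfb and log2 1.67 for Saa3, but none passed. The median difference of the 8 members was log2 1.23, beside 0.13 for all probes. Ordered by size of the positive difference, Lcn2 stood 46th and Alb 75th among the 28853 probes.

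**Figure D1:**
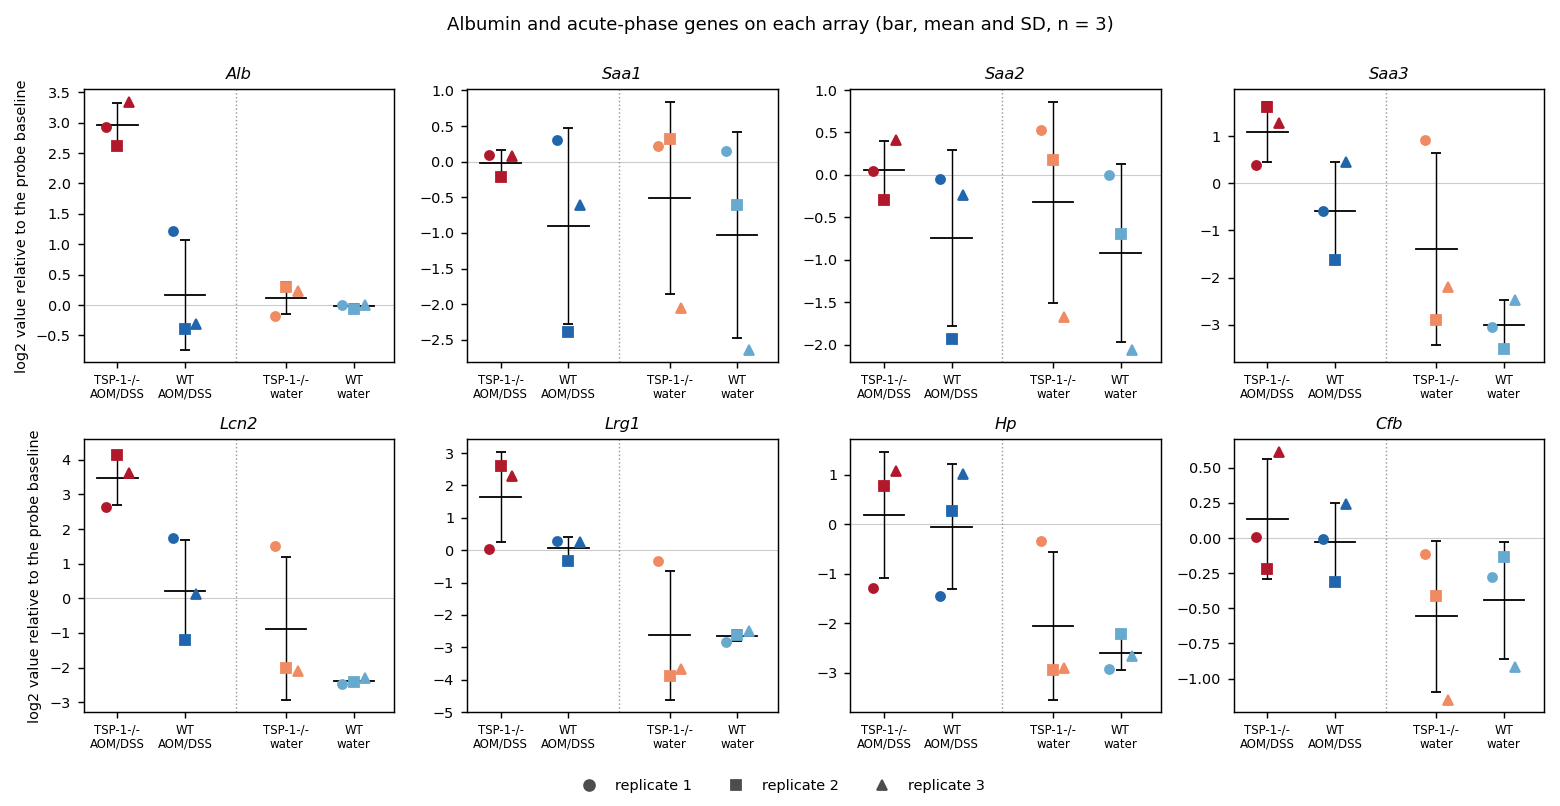
Log2 value relative to the probe baseline (vertical axis, a scale of its own in each panel) of the 8 measured genes on each array. Symbols are replicates, horizontal bars are means and error bars are SD (n = 3), and the dotted line separates the AOM/DSS from the water arrays. Alb and Lcn2 on the TSP-1-/- AOM/DSS arrays lie above all WT AOM/DSS arrays, and TSP-1-/- water replicate 1 lies apart at Lcn2, Lrg1, Saa3 and Hp.

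Alb encodes serum albumin, the most abundant plasma protein, which hepatocytes make and which carries fatty acids and other ligands. Alb read 2.93, 2.61 and 3.34 on the TSP-1-/- AOM/DSS arrays, against 1.22, -0.39 and -0.32 on the WT AOM/DSS arrays. The groups did not overlap, and WT replicate 1 lay between the other WT arrays and the TSP-1-/- arrays. The mean was 2.96 ± 0.37 in TSP-1-/- and 0.17 ± 0.91 in WT (SD, n = 3 each), a difference of log2 2.79 (SE 0.35, 95% confidence interval 2.02 to 3.56, 6.91-fold, adjusted p = 0.00448, limma). The call was lost when all 12 arrays were quantile normalized again, where the difference was log2 1.35 (adjusted p = 0.0860), and when the water groups were left out of the fit (adjusted p = 0.0988). On the water arrays Alb read -0.18, 0.30 and 0.22 in TSP-1-/-, against 0.00, -0.06 and 0.00 in WT, and the groups overlapped. The water difference was log2 0.13 (95% confidence interval -0.64 to 0.90, adjusted p = 1.00). The AOM/DSS difference exceeded the water difference by log2 2.66, which did not pass the test across all probes (adjusted p = 0.135). Without WT AOM/DSS replicate 1 this excess was log2 3.18 (adjusted p = 4.77e-04), without TSP-1-/- AOM/DSS replicate 2 it was log2 2.83 (adjusted p = 0.0492), and with arrays weighted by their quality log2 2.60 (adjusted p = 0.0274). These were the only 3 of 21 other settings in which the excess was called. In the other 18 it was not, and over all 21 it ran from log2 1.17 to 3.18, with limma adjusted p up to 0.533. Only 0.00694% of 28815 probes were called in this test on the full set of arrays, and no member was among them.

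The promoter of Alb is shown because liver transcription of this gene is known to depend on C/EBP and HNF1 sites close to its start. The 250 bases before the start come from RefSeq (GRCm38.p6, chr5:90460620-90460869, + strand), written 5′ to 3′ along the gene. Capitals mark a match to TTGCNNAA (a C/EBP motif, here on the opposite strand) and, nearer the start, a match to GTTAAT (part of an HNF1 site). Both motifs were searched on both strands.
Alb: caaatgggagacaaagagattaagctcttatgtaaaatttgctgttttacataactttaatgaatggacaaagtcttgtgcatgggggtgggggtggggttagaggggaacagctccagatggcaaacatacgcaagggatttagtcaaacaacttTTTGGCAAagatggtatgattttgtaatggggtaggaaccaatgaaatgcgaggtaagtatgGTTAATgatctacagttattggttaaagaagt
Among 32851 promoters of this length, 9.56% held a TTGCNNAA match and 6.43% a GTTAAT match. The Alb window held no TTCNNNGAA (a STAT motif, in 7.02% of promoters) and no match to the NF-kappaB motif searched (1.41%). A match is a run of letters and not a measured site.

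Alb was the only 1 of 23 measured genes for liver plasma proteins that was called. Of these 23 genes, 16 had positive and 7 negative differences, with a median of log2 0.35 beside 0.13 for all probes. Afp, the fetal counterpart of albumin and named here after its values were seen, read 0.46, 0.24 and 0.39 on the TSP-1-/- AOM/DSS arrays, against 0.39, -0.26 and -0.22 on the WT AOM/DSS arrays. The Afp difference was log2 0.39 (SE 0.16, adjusted p = 0.128). Further plasma protein genes that passed on p but not on size, also named after their values were seen, were the inter-alpha-inhibitor heavy chains Itih4 (log2 0.73, adjusted p = 0.0290) and Itih3 (log2 0.57, adjusted p = 0.0497), Fgb, the fibrinogen beta chain (log2 0.66, adjusted p = 0.0343), and Ahsg, fetuin-A (log2 0.41, adjusted p = 0.0493). Ambp, the precursor of alpha-1-microglobulin and bikunin, ran the other way (log2 -1.25, adjusted p = 0.0715). The median of the list on single arrays lay between -0.05 and 0.17 in TSP-1-/- and between -0.28 and -0.07 in WT after AOM/DSS.

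**Figure D2:**
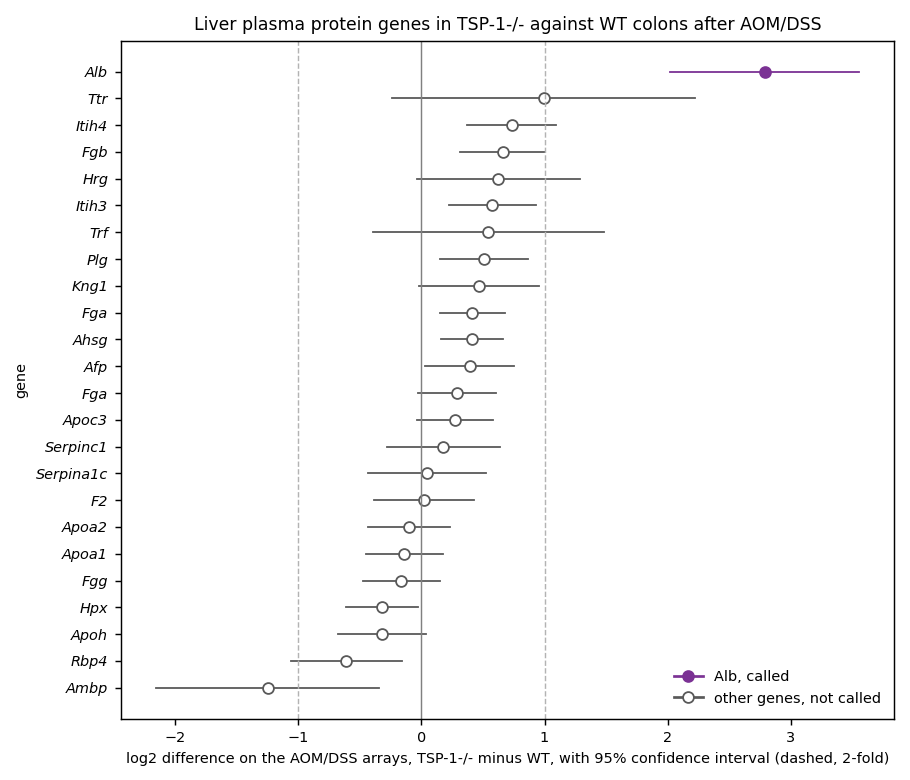
Log2 difference between TSP-1-/- and WT on the AOM/DSS arrays (horizontal axis) for the probes of the measured liver plasma protein genes, ordered by size, with 95% confidence intervals. Fga has 2 probes. Dashed lines mark 2-fold, the filled point is the called gene, and Alb at log2 2.79 is the only point beyond the upper line.

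Of 11 measured hepatocyte enzymes and regulators, 1 was called higher and 1 lower, and the median difference was log2 -0.57. Arg1, the arginase of the urea cycle that macrophages also make, read 1.02, 1.16 and 2.10 on the TSP-1-/- AOM/DSS arrays, against -1.06, -0.02 and -0.44 on the WT AOM/DSS arrays. The groups did not overlap, and the Arg1 difference was log2 1.93 (SE 0.34, adjusted p = 0.0169). Cyp2e1, a cytochrome P450 of hepatocytes that adipocytes also express, was lower by the test (log2 -2.83, SE 0.79, adjusted p = 0.0481) although 1 TSP-1-/- array lay above 1 WT array. The Arg1 call was lost without WT AOM/DSS replicate 3, with all arrays quantile normalized again, and with the water groups left out of the fit. The Cyp2e1 call is among the least stable, with 0 genes of the list called lower when TSP-1-/- AOM/DSS replicate 3, WT AOM/DSS replicate 2 or 3, TSP-1-/- water replicate 1 or 2, or any WT water array was left out.

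Lcn2 encodes lipocalin-2, which binds bacterial siderophores and so withholds iron, and which neutrophil granules and inflamed epithelium contain. Lcn2 read 2.64, 4.14 and 3.62 on the TSP-1-/- AOM/DSS arrays, against 1.73, -1.20 and 0.11 on the WT AOM/DSS arrays. The groups did not overlap, and WT replicate 1 was again the highest of the WT arrays. The mean was 3.47 ± 0.76 in TSP-1-/- and 0.21 ± 1.47 in WT (SD, n = 3 each), a difference of log2 3.25 (SE 0.89, 95% confidence interval 1.31 to 5.20, 9.54-fold, adjusted p = 0.0463, limma). This call was close to its threshold: leaving out WT AOM/DSS replicate 1 gave log2 4.01 (adjusted p = 0.0219), while leaving out TSP-1-/- AOM/DSS replicate 3 gave log2 3.18 (adjusted p = 0.119) and WT AOM/DSS replicate 3 log2 3.20 (adjusted p = 0.141). Over 22 other settings the Lcn2 difference stayed positive, between log2 1.66 and 4.01, and was called in 8. Alb was called in 20 of its 22.

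On the water arrays Lcn2 read 1.50, -2.03 and -2.10 in TSP-1-/-, against -2.47, -2.41 and -2.29 in WT. Every TSP-1-/- array was higher than every WT array, which held for 2.29% of all 28815 probes on the water arrays, while no member had the reverse order, found for 2.88%. On the AOM/DSS arrays only Alb and Lcn2 of the 8 members had every TSP-1-/- array above every WT array, as did 20.2% of all 28853 probes, and none had the reverse order, found for 10.7%. Replicate 1 stood far above the other TSP-1-/- water arrays. The water difference was log2 1.51 (SE 0.89, 95% confidence interval -0.43 to 3.46, adjusted p = 1.00), and without TSP-1-/- water replicate 1 it was log2 0.33. The AOM/DSS difference exceeded the water difference by log2 1.74, which did not pass the test (adjusted p = 0.486).

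Saa3 encodes the serum amyloid A protein that mice make mainly outside the liver, in macrophages, adipocytes and epithelium. Saa3 read 0.38, 1.61 and 1.29 on the TSP-1-/- AOM/DSS arrays, against -0.58, -1.62 and 0.46 on the WT AOM/DSS arrays. The groups overlapped, since WT replicate 3 lay above TSP-1-/- replicate 1. The difference was log2 1.67 (SE 0.82, 95% confidence interval -0.12 to 3.46, adjusted p = 0.178). On the water arrays Saa3 read 0.92, -2.91 and -2.20 in TSP-1-/-, against -3.05, -3.51 and -2.47 in WT, with replicate 1 of TSP-1-/- far above the rest. The water difference of log2 1.61 (adjusted p = 1.00) was log2 0.45 without that array.

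The promoters of Lcn2 and Saa3 are shown beside each other because both are made locally in inflamed tissue and both windows hold a TTGCNNAA match, given in capitals. They cover the 250 bases before the start in RefSeq GRCm38.p6, at chr2:32387740-32387989 for Lcn2 and chr7:46715677-46715926 for Saa3, both on the - strand and written 5′ to 3′ along the gene. The Saa3 match lies on the strand opposite to the gene.
Lcn2: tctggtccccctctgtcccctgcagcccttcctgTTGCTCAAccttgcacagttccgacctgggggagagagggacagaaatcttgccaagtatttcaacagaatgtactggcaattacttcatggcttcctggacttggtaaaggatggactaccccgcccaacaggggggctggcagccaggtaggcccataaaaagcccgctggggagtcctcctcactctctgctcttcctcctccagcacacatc
Saa3: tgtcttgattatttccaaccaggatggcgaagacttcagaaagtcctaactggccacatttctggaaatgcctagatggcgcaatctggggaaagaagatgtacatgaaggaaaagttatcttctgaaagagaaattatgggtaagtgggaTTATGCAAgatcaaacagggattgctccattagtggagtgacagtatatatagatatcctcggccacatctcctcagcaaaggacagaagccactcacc
A TTGCNNAA match stood in the windows of Alb, Lcn2, Saa1, Saa2, Saa3 and C3 among the 7 members with a promoter sequence, against 9.56% of all promoters, and these were chosen as genes of a response in which C/EBP factors are known to act. The Lrg1 window held no match to any of the 5 motifs searched. None of the 7 windows held the STAT or NF-kappaB motif above, or TATAAA, the letters of a TATA box, which 12.4% of all promoters held.

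Lrg1 encodes leucine-rich alpha-2-glycoprotein, a secreted protein that acts on TGF-beta signalling in endothelium. Lrg1 read 0.05, 2.60 and 2.28 on the TSP-1-/- AOM/DSS arrays, against 0.29, -0.33 and 0.25 on the WT AOM/DSS arrays. Replicates 2 and 3 of TSP-1-/- were high, while replicate 1 lay within the WT range. The difference was log2 1.58 (SE 0.83, 95% confidence interval -0.23 to 3.38, adjusted p = 0.205), and without TSP-1-/- AOM/DSS replicate 1 it was log2 2.37 (adjusted p = 0.0895). On the water arrays Lrg1 read -0.34, -3.88 and -3.67 in TSP-1-/-, against -2.83, -2.62 and -2.49 in WT. Replicate 1 of TSP-1-/- water was above all WT water arrays and the other two TSP-1-/- arrays below them, so that the difference was log2 0.01 with all arrays and log2 -1.13 (adjusted p = 1.00) without replicate 1.

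Hp encodes haptoglobin, which binds free haemoglobin for clearance. Hp read -1.28, 0.77 and 1.07 on the TSP-1-/- AOM/DSS arrays, against -1.44, 0.28 and 1.02 on the WT AOM/DSS arrays. Each genotype held 1 low and 2 high arrays, the groups overlapped almost wholly, and the difference was log2 0.24 (95% confidence interval -1.50 to 1.97, adjusted p = 0.854). On the water arrays Hp read -0.34, -2.93 and -2.90 in TSP-1-/-, against -2.91, -2.22 and -2.66 in WT, again with replicate 1 of TSP-1-/- alone above the rest. The water difference was log2 0.54 with that array and log2 -0.32 without it (adjusted p = 1.00 in both).

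The high values of Lcn2, Saa3, Lrg1 and Hp on TSP-1-/- water replicate 1 went with high neutrophil transcripts and high Il1b and Il6 on the same array. S100a8, S100a9, Il6 and Cpb1 are named here after their values were seen. S100a8, a calprotectin subunit of neutrophils, read 0.96 on this array and between -4.96 and -3.98 on the other 5 water arrays. S100a9, its partner, read 0.49 there and between -5.99 and -5.09 on the others. Il1b, the interleukin-1 beta gene, read -0.19 there and between -4.76 and -3.80 on the others, and Il6 read 1.35 there and between -2.84 and -1.80 on the others. The median of 14 measured neutrophil genes was 0.20 on this array, -1.93 and -1.82 on the other TSP-1-/- water arrays, and between -2.20 and -0.87 on the WT water arrays. For the 17 measured cytokines and receptors the median differed less. It was -0.19 on this array, -0.38 on each of the other TSP-1-/- water arrays, and between -0.82 and -0.49 on the WT water arrays. Il6ra, the interleukin-6 receptor gene, was lowest on this array, at -0.48. The array also carried pancreatic transcripts, with carboxypeptidase gene Cpb1 at 4.40 against -0.13 to 0.06 on the other water arrays. The part of neutrophils or pancreas in the acute-phase values was not tested. With all arrays 0 of the 8 members were called higher on the water arrays, and 0 lower, and 0% of 28815 probes were called by limma, with 288 of them at an unadjusted p under 0.05.

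**Figure D3:**
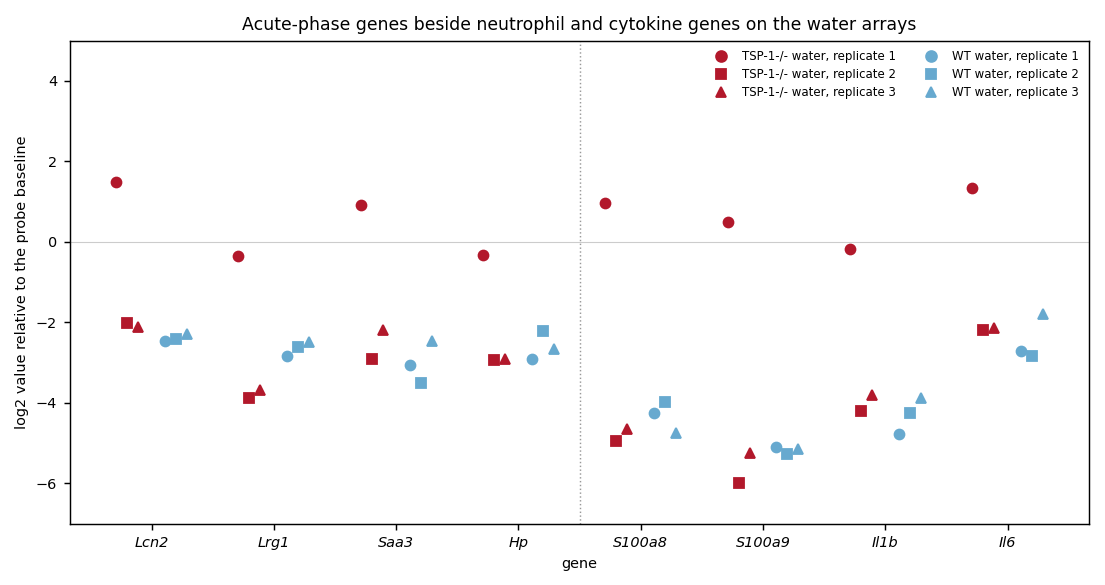
Log2 values relative to the probe baseline (vertical axis) on the 6 water arrays for Lcn2, Lrg1, Saa3 and Hp, left of the dotted line, and for S100a8, S100a9, Il1b and Il6, right of it. Each symbol is 1 array. TSP-1-/- replicate 1 is the highest array at all 8 genes.

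Neutrophil transcripts also went with Lcn2 after AOM/DSS. S100a9, named after its values were seen, read 3.40, 4.86 and 5.29 on the TSP-1-/- AOM/DSS arrays, against 1.88, -0.89 and -0.67 on the WT AOM/DSS arrays. The S100a9 difference of log2 4.41 missed the threshold (adjusted p = 0.0584). Cxcr2, the chemokine receptor of neutrophils, was higher by log2 4.58 (SE 0.84, adjusted p = 0.0184) and Csf3r, the G-CSF receptor, by log2 2.56 (SE 0.46, adjusted p = 0.0170). These were the 2 called among 14 neutrophil genes, of which 13 had positive differences (median log2 1.33). The differences were uneven, from log2 -0.02 for the granule gene Mpo to 4.58 for Cxcr2. In this list 0 were called without TSP-1-/- AOM/DSS replicate 3 or WT AOM/DSS replicate 3, while 6 were called with TSP-1-/- water replicate 1 left out. Array medians of the neutrophil list ran from 0.51 to 1.02 in TSP-1-/- and from -0.46 to 0.19 in WT. Among macrophage genes 2 of 8 were called higher, Lyz2 (log2 1.78, adjusted p = 0.0234) and Csf1r (log2 1.03, adjusted p = 0.0492), and 0 were called without TSP-1-/- AOM/DSS replicate 3 or without WT replicate 2 or 3 of that set. The part of these cells in the Lcn2 difference was not tested.

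Saa1 and Saa2 encode the serum amyloid A proteins that ride on high-density lipoprotein, and they are near-identical neighbours whose probes may each detect both transcripts. Saa1 read 0.09, -0.22 and 0.08 on the TSP-1-/- AOM/DSS arrays, against 0.30, -2.40 and -0.61 on the WT AOM/DSS arrays. Saa2 read 0.05, -0.29 and 0.41 on the TSP-1-/- AOM/DSS arrays, against -0.05, -1.93 and -0.24 on the WT AOM/DSS arrays. The groups overlapped at both genes, and WT replicate 2 was the lowest array at both. The differences were log2 0.88 for Saa1 (95% confidence interval -0.89 to 2.66, adjusted p = 0.459) and log2 0.80 for Saa2 (95% confidence interval -0.62 to 2.22, adjusted p = 0.405). Without WT AOM/DSS replicate 2 they were log2 0.14 and 0.20.

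On the water arrays Saa1 read 0.23, 0.32 and -2.06 in TSP-1-/-, against 0.16, -0.61 and -2.64 in WT, and Saa2 read 0.53, 0.18 and -1.67 in TSP-1-/-, against 0.00, -0.69 and -2.06 in WT. Replicate 3 was the lowest array of each genotype, and the groups overlapped. The differences were log2 0.53 and 0.60 (adjusted p = 1.00 for both). The low arrays were also low in Hoxb13, a homeobox gene of the most distal gut, named after its values were seen. Hoxb13 read 0.78, -0.06 and 0.06 on the TSP-1-/- AOM/DSS arrays, against 0.43, -6.33 and -5.89 on the WT AOM/DSS arrays, and 1.70, 2.17 and -4.24 on the TSP-1-/- water arrays, against 2.48, 1.52 and -3.68 on the WT water arrays. WT AOM/DSS replicate 3, also low in Hoxb13, was at Saa1 the lowest of the AOM/DSS arrays after WT replicate 2, and at Saa2 lay within the TSP-1-/- range. Whether the position of the sampled colon bears on Saa1 and Saa2 was not tested.

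**Figure D4:**
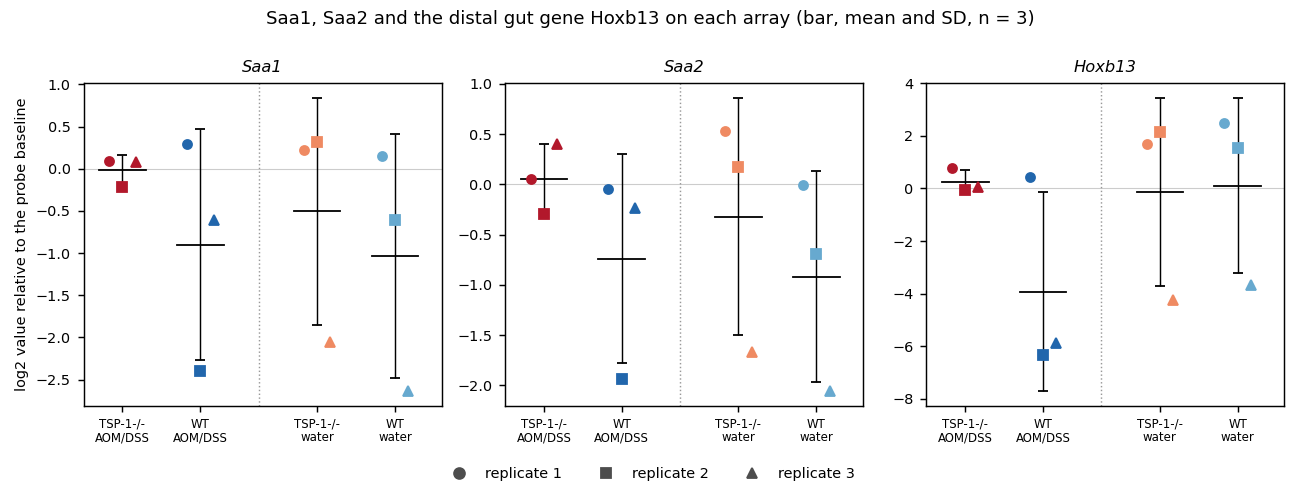
Log2 values relative to the probe baseline (vertical axes, scales differ) of Saa1, Saa2 and Hoxb13 on each array. Symbols are replicates, horizontal bars are means and error bars are SD (n = 3). WT AOM/DSS replicate 2, TSP-1-/- water replicate 3 and WT water replicate 3 are the lowest arrays of their sets and genotypes at all 3 genes.

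The promoters of Saa1 and Saa2 are printed to show how alike these copies are. They cover 250 bases before each start in RefSeq GRCm38.p6, at chr7:46742981-46743230 (- strand) for Saa1 and chr7:46751583-46751832 (+ strand) for Saa2, written 5′ to 3′ along each gene, with the TTGCNNAA match in capitals.
Saa1: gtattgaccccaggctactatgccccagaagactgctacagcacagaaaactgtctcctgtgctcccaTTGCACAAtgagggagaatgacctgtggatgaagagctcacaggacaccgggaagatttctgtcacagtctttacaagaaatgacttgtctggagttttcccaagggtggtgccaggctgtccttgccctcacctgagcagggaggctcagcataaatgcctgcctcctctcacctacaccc
Saa2: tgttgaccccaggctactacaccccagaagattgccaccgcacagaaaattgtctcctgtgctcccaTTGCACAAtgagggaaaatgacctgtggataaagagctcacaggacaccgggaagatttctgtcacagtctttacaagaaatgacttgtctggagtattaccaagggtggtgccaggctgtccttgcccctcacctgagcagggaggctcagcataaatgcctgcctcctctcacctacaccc
The aligned windows were identical at 238 of 249 positions (95.6%). The array values of Saa1 and Saa2 had a Pearson correlation of 0.96 over the 6 AOM/DSS arrays and 0.98 over the 6 water arrays. Both probes were read on the same arrays and may each detect both transcripts, and the part of this in the correlation was not tested.

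Cfb encodes complement factor B, the protease of the alternative pathway. Cfb read 0.01, -0.22 and 0.61 on the TSP-1-/- AOM/DSS arrays, against -0.01, -0.31 and 0.24 on the WT AOM/DSS arrays, and -0.11, -0.41 and -1.15 on the TSP-1-/- water arrays, against -0.28, -0.13 and -0.92 on the WT water arrays. The groups overlapped in both sets. The differences were log2 0.16 (95% confidence interval -0.49 to 0.82, adjusted p = 0.727) after AOM/DSS and log2 -0.12 (95% confidence interval -0.77 to 0.54, adjusted p = 1.00) on water.

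**Figure D5:**
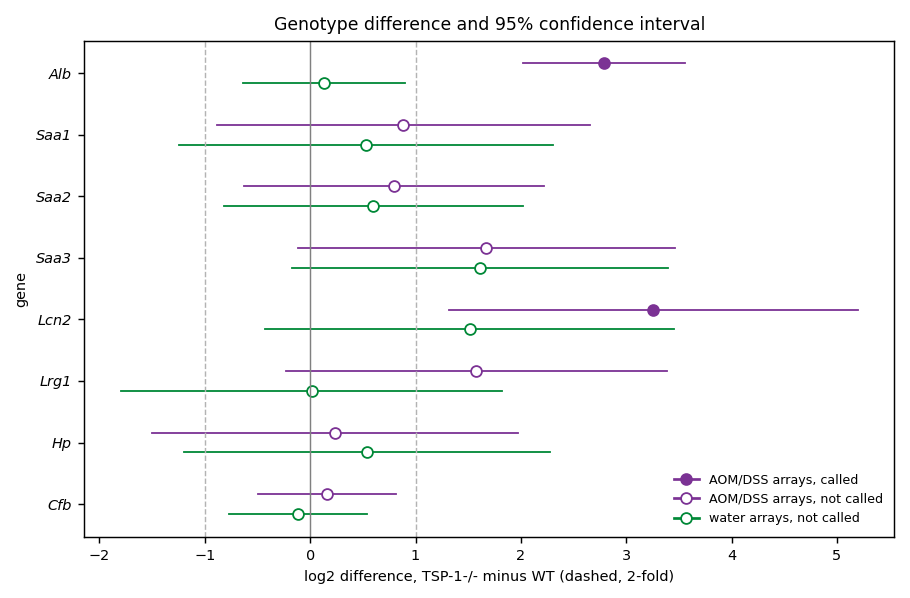
Log2 difference between TSP-1-/- and WT (horizontal axis) for the 8 genes with 95% confidence intervals, for the AOM/DSS set and for the water set. Filled points were called, dashed lines mark 2-fold, and only the Alb and Lcn2 intervals on the AOM/DSS arrays lie wholly above 0.

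The complement genes around C3 and Cfb were counted by role, and the lists were not tested against each other. Of 18 measured complement components 0 were called by limma, although 16 had positive differences (median log2 0.54) and 4 had an adjusted p under 0.05. That count became 2 called higher without TSP-1-/- AOM/DSS replicate 2, 1 called lower without TSP-1-/- AOM/DSS replicate 3 or WT AOM/DSS replicate 1, and 1 called higher with the replicate number as a block. The components with the largest differences were C4b, of the classical pathway (log2 1.28, SE 0.59, adjusted p = 0.158), and properdin Cfp, which stabilises the alternative convertase (log2 0.98, SE 0.26, adjusted p = 0.0413, under 2-fold). Of 14 regulators and receptors, 7 were called higher and 0 lower (median log2 1.13). They were Cd46 (log2 1.51, adjusted p = 0.0110), Cd55 and C4bp, which limit C3 convertases or act as cofactors, Cfi, the protease that inactivates C3b (log2 2.57, adjusted p = 0.0178), clusterin Clu, which blocks the terminal complex (log2 2.59, adjusted p = 0.0169), the C5a receptor C5ar1, and Itgax, a subunit of complement receptor 4 (log2 1.20, adjusted p = 0.0206). The count of 7 fell to 2 when TSP-1-/- AOM/DSS replicate 3 was left out, to 1 when WT replicate 3 of that set was, and to 4 when its WT replicate 2 was. It also fell with quantile normalization of all arrays or within each array set, with the water groups left out, and with array weights. The lowest count over these settings was 0. TSP-1-/- AOM/DSS replicate 3 carried pancreatic transcripts, with Cpb1 at 8.41, and its part in the complement values was not tested beyond leaving it out.

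Among 17 measured cytokines and receptors that induce the response, 15 had positive differences (median log2 0.54) and 2 were called higher. Il1b read 2.83, 4.21 and 3.88 on the TSP-1-/- AOM/DSS arrays, against 1.82, -0.82 and 0.00 on the WT AOM/DSS arrays. The groups did not overlap, and the Il1b difference was log2 3.31 (SE 0.92, adjusted p = 0.0478). Osmr, the oncostatin M receptor, was higher by log2 1.38 (SE 0.36, adjusted p = 0.0405). Both calls were lost when TSP-1-/- AOM/DSS replicate 2 or 3, WT AOM/DSS replicate 2 or 3, or WT water replicate 1 was left out. Fewer than 2 calls also remained under each other normalization and with the water groups left out of the fit. The same held, among other settings, with the replicate number as a block and with array weights. Il6, named after its values were seen, read -0.10, 0.58 and 0.24 on the TSP-1-/- AOM/DSS arrays, against -0.65, 0.02 and -0.28 on the WT AOM/DSS arrays, a difference of log2 0.54 (adjusted p = 0.624).

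Of 13 transcription regulators of the response 0 were called. Rel, an NF-kappaB subunit, had log2 0.94 (SE 0.25, adjusted p = 0.0431), under 2-fold, and Cebpa, a C/EBP factor of hepatocytes and adipocytes, log2 -0.69 (SE 0.20, adjusted p = 0.0507). Of 18 further acute-phase genes, Cp, the copper-carrying ferroxidase ceruloplasmin, was called higher (log2 1.83, SE 0.46, adjusted p = 0.0380) and Mt1, a metallothionein, lower (log2 -1.14, SE 0.25, adjusted p = 0.0275). The Cp call was lost without TSP-1-/- AOM/DSS replicate 3, WT AOM/DSS replicate 2 or 3, or WT water replicate 1. Quantile normalization, of all arrays or within each array set, also removed the Cp call, as did leaving the water groups out and weighting the arrays. The Mt1 call was lost without TSP-1-/- AOM/DSS replicate 1 or 3 or WT AOM/DSS replicate 2 or 3. The number called lower in this list also changed with all arrays quantile normalized again and with the water groups left out. Among 11 receptors and other binding partners of the proteins, Mmp9, the gelatinase that lipocalin-2 binds, was the only call (log2 1.90, SE 0.39, adjusted p = 0.0236). The Mmp9 call was lost without TSP-1-/- AOM/DSS replicate 3 or WT AOM/DSS replicate 3. It was also lost with all arrays quantile normalized again, with the water groups left out and with array weights.

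The genes whose pattern over the 6 AOM/DSS arrays was most like that of Alb, by Pearson correlation, were Rbms1, A530053G22Rik, Stra6, Abcc4 and Prox1 (0.996 to 0.998). These arrays fall into genotypes, so the correlation mostly restates the genotype difference, and over the 6 water arrays it was between -0.07 and 0.81. Prox1, a homeobox gene of lymphatic endothelium and liver, read 2.80, 2.68 and 3.44 on the TSP-1-/- AOM/DSS arrays, against 1.36, -0.02 and -0.27 on the WT AOM/DSS arrays. Stra6, the receptor for retinol-binding protein, read 3.54, 2.93 and 3.86 in TSP-1-/-, against 1.33, -0.18 and 0.01 in WT. Both placed WT replicate 1 between the others, as Alb did. The genes most like Lcn2 were Il1b, Lrsam1, Slco5a1, S100a11 and Gpr162 (0.990 to 0.997). Over the 6 water arrays their correlation with Lcn2 was 0.987 for Il1b, 0.857 for S100a11, 0.459 for Slco5a1, -0.328 for Lrsam1 and -0.478 for Gpr162, among arrays of which TSP-1-/- replicate 1 lay far from the rest at Lcn2 and Il1b.

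Other cell type markers moved on the same AOM/DSS arrays. Of 12 adipocyte genes, 3 were called lower (Pparg, Cidec and Retn), 10 had negative and 2 positive differences, and array medians ran from -0.94 to -0.92 in TSP-1-/-, against -0.84, 0.85 and 0.94 in WT, where replicate 1 was the low array. By gut position markers WT replicate 1 also sided with the TSP-1-/- arrays: Osr2 read -4.16, -4.53 and -4.50 in TSP-1-/-, against -4.13, 0.94 and 1.19 in WT (called lower, adjusted p = 0.0492, the only call of 10 measured genes). Of these 10 genes 4 had positive and 6 negative differences, from log2 -3.73 for Osr2 to 4.19 for Hoxb13. All 12 markers of colonic epithelium had negative differences (median log2 -0.54), with 1 called (Car1), and array medians were -0.07, -0.05 and -0.72 in TSP-1-/-, against 0.10, 0.04 and 0.13 in WT. All 12 pancreatic markers had positive differences (median log2 2.47), with 1 called (Pnliprp1), and array medians were 0.06, 0.15 and 6.29 in TSP-1-/-, against -0.11, -0.21 and -0.20 in WT, so that TSP-1-/- replicate 3 stood apart at both lists. Pnliprp1 itself was high on every TSP-1-/- array and on WT replicate 1, at 5.37, 3.47 and 7.23 in TSP-1-/-, against 3.26, -0.29 and -0.25 in WT. Of 9 markers of inflamed colonic epithelium 1 was called higher (Cxcl5). Their differences were split, 5 positive and 4 negative, from log2 -1.98 to 3.74 (median log2 0.15, beside 0.13 for all probes). Markers of small intestinal epithelium were called lower in 1 of 10 (Alpi), of fibroblasts and smooth muscle higher in 1 of 8 (Col1a1) and of erythroid cells in 0 of 2. Leaving out WT AOM/DSS replicate 3 left 0 calls in each of these lists, and leaving out WT AOM/DSS replicate 1 gave 9 adipocyte and 6 gut position genes called lower. Without WT AOM/DSS replicate 1, Alb differed by log2 3.31 (adjusted p = 1.65e-05) and Lcn2 by log2 4.01. Without TSP-1-/- AOM/DSS replicate 3, Alb differed by log2 2.60 (adjusted p = 0.0129) and Lcn2 by log2 3.18 (adjusted p = 0.119). The part of these cell types, or of the position of the sampled colon, in the Alb and Lcn2 differences was not tested.

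Treatment cannot be told apart from array set here, and AOM/DSS was not tested against water probe by probe. Set against the median of all 12 arrays, which the methods give as the baseline, 5 of 6 AOM/DSS arrays lay above it at Lcn2 and at Lrg1, 4 at Alb, Saa3 and Hp, 3 at Saa1 and Cfb and 2 at Saa2. No member lay on the same side on all 6 arrays, whereas 2.02% of all probes lay above on all 6 and 4.02% above on none. Without WT AOM/DSS replicate 2, Lcn2 and Lrg1 lay above on every array left. An estimate that moves the water arrays of each probe onto the AOM/DSS baseline by an offset, chosen after the data were seen and given without a test, put Alb after AOM/DSS at log2 2.96 above water in TSP-1-/- and 0.30 in WT. It put Lcn2 at log2 2.43 in TSP-1-/-, or 3.62 without TSP-1-/- water replicate 1, and 0.69 in WT, and Lrg1 at log2 1.84 in TSP-1-/-, or 2.99 without that array, and 0.28 in WT. Saa3 was at log2 0.16 in TSP-1-/-, or 1.31 without that array, and 0.10 in WT. Saa1 was at log2 -0.05 in TSP-1-/-, or 0.32 without TSP-1-/- water replicate 1, and -0.40 in WT. With all arrays Saa2 was below water in both genotypes, but by how much was not determined. Its middle values over the 12 arrays, 0.05 and -0.05, were both AOM/DSS arrays, so a range of offsets gives the same median. The end of that range that puts water highest gave log2 -1.24 in TSP-1-/- and -1.44 in WT. Other offsets in the range give smaller sizes. Hp was at log2 -0.20 in TSP-1-/-, or 0.66 without TSP-1-/- water replicate 1, and 0.11 in WT. At Cfb the middle values, 0.01 and -0.01, were likewise both AOM/DSS arrays, so the offset was again a range. The end that puts water lowest gave log2 0.41 in TSP-1-/- and 0.13 in WT, and other offsets in the range give lower values.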

How the data were processed

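Colon RNA of 12 mice was measured on Affymetrix mouse gene arrays. The authors summarised probe signals with PLIER16, quantile normalized them and deposited log2 values relative to a baseline per probe, given in the methods as the median of all 12 samples. Checked against 377 genes of a table of group means, the AOM/DSS means of 376 matched exactly 1 probe within 0.0001 and the water means of 0, so the water arrays are on another baseline. The labels of the water arrays describe another DSS protocol, that of an earlier study. The values were used as deposited, and 38 of 28853 probes had no value on water arrays. Of the probes 21789 list 1 gene symbol, 1621 several and 5443 none, and only the first were named.

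TSP-1-/- was compared with WT within each array set, and the 2 differences with each other, by limma on all 12 arrays with a mean per group and moderated variances. Calls needed a Benjamini-Hochberg adjusted p under 0.05 over all probes and 2-fold or more. The methods' analysis of variance used the same thresholds after filters, of which the filter on low signal cannot be applied to relative values. The labels call the arrays biological replicates, with nothing further on the animals. Same-numbered arrays of the genotypes did not deviate together on the AOM/DSS arrays, while on the water arrays their deviations correlated at 0.09, 0.28 and 0.40. The genes, gene lists and motifs were chosen with earlier results of these data known. The naming rule took all measured members, per list up to 4 called genes by smallest adjusted p or otherwise the 2 with the largest difference, the 5 genes most like Alb and the 5 most like Lcn2, and Thbs1. Outside this rule, and after their values were seen, S100a8, S100a9, Cpb1, Hoxb13, Ambp, Il6ra, Mpo, Cd55, C4bp and C5ar1 are also named, as are the genes marked so above. Normalization, samples in the fit, filters, variance models and each array left out were varied.

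Promoters are 250 bases before the start in RefSeq GRCm38.p6 for 7 of the 9 members. The fits ran in limma 3.58.1 under R 4.3.3, and the rest in Python 3.11.15 with scipy 1.17.1 and pandas 2.3.3.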

Additional observations from a re-analysis of the deposited data

How the results depend on the processing

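The count of 2 members called higher after AOM/DSS became 0 with all 12 arrays quantile normalized again (Alb log2 1.35, adjusted p = 0.0860; Lcn2 log2 1.66, adjusted p = 0.368) and with the water groups left out of the fit (adjusted p = 0.0988 for Alb and 0.122 for Lcn2). It became 1 with quantile normalization within each array set, with robust moderation and with array weights (Lcn2 adjusted p = 0.225, 0.0702 and 0.114), and ran from 1 to 2 as each array was left out, where Alb stayed called. The causes were not tested. All probes called numbered 183, 6 and 381 under quantile normalization of all arrays, the AOM/DSS groups alone and array weights, and 104 to 1402 with an array left out (104 without WT AOM/DSS replicate 3, 1402 without TSP-1-/- AOM/DSS replicate 2). On water 0 to 1 probes were called with an array left out. For the difference of the genotype differences, 1 member (Alb) was called with array weights and 0 to 1 with an array left out, and 2 probes became 18 and 20 with quantile normalization of all arrays and within sets, 9 with a filter on spread, 4 with robust moderation and with probes of a gene averaged, 82 with array weights, and 1 to 289 with an array left out. Same-numbered arrays correlated at 0.03, -0.04 and -0.02 after AOM/DSS. On water they correlated at 0.09, 0.28 and 0.40, against -0.38 to 0.18 for arrays of unlike number. The labels name no pairing, and the numbers were not taken as pairs in the main fit, though the water arrays leave a shared deviation by number possible. With the replicate number as a block 2 members and 803 probes were called (Alb adjusted p = 0.0111, Lcn2 0.0483), and 1 probe for the difference of differences. Signs that turned belonged to members that were not called. Hp after AOM/DSS was -0.064 and -0.14 under quantile normalization of all arrays and within sets, -0.40 with array weights, and -0.46 to 0.97 with an array left out, and Cfb -0.076 to 0.34. On water the ranges with an array left out were -0.28 to 1.30 for Saa1, -1.13 to 0.64 for Lrg1, -0.32 to 0.98 for Hp and -0.35 to 0.18 for Cfb. For the difference of differences Saa3 was -0.018 with arrays centred, -0.035 with all arrays quantile normalized and -0.034 with array weights. Those ranges with an array left out were -0.70 to 1.22 for Saa3, -0.42 to 1.16 for Saa1, -0.48 to 0.77 for Saa2, -1.003 to 0.55 for Hp and -0.018 to 0.52 for Cfb. Members on the same side of the 12-array median on every AOM/DSS array numbered 0 to 2. Relative values hold no signal over background, so dim probes could not be set apart.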
